A study of Mus musculus with 6 samples.

Results

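The genes described here are 10 immediate early genes, transcription factors and a nuclear protein whose transcripts are known to rise within minutes when cells are stimulated or taken out of tissue. They were taken by their symbols, Fos, Fosb, Jun, Junb, Jund, Egr1, Atf3, Ier2, Klf4 and Nr4a1, and all 10 were found among the 22063 genes of the deposited table. All 10 had enough counts to be tested, with 13117 genes tested in all. The libraries were made from cardiomyocytes, the contracting cells of the heart, which were isolated from wild-type mice by perfusing the coronary vessels (the Langendorff method), with Trizol-extracted RNA and mRNA library preparation. The AKG group (3 libraries) received α-ketoglutarate, the tricarboxylic acid cycle intermediate also called 2-oxoglutarate, by daily injection of 300 mg per kg for 2 weeks, and the Control group (3 libraries) received phosphate-buffered saline on the same schedule. Postnatal day 21 is the age the labels give for the injected mice and also for the hearts that were dissociated, so the age at harvest is uncertain. Whether a library held 1 mouse or several was not given, so the p-values measured the spread between these libraries only.

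Immediate early genes need no new protein for their induction. Kinase signals reach factors already bound at their promoters, among them serum response factor with its partners and CREB, and the transcripts decay quickly once the signal stops. FOS proteins pair with JUN proteins to form AP-1, a dimeric transcription factor that binds DNA through basic leucine zippers, and ATF3 joins the same network. Digestion of tissue with enzymes is itself a known stimulus of these genes, in heart as in other tissues. No library in this comparison came from undissociated heart, so what the isolation added to each level cannot be told apart from what the living heart held.

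Before the values, the promoters of the members that carried the largest differences are shown, together with that of Jun for contrast, because the sequence just before the start is where CREB and AP-1 proteins act on several of these genes. The RefSeq promoter table (GRCm38.p6) matched 8 of the 10 members. Ier2 and Egr1 were not matched. Each sequence below holds the 250 bases before the table's start site, 5′ to 3′ on the strand of the gene. Capitals mark the core of the cyclic AMP response element, TGACG or its reverse complement CGTCA, and in Jun the octamer TGACATCA, a variant AP-1 site. The windows lie at chr1:191183334-191183583 on the minus strand for Atf3, chr15:101266596-101266845 on the plus strand for Nr4a1, chr12:85473640-85473889 on the plus strand for Fos and chr4:95052223-95052472 on the minus strand for Jun.
Atf3: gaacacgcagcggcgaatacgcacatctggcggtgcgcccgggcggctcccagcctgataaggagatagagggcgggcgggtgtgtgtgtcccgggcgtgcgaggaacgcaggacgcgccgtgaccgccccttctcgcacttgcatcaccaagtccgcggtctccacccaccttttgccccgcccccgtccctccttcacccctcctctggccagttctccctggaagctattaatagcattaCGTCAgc
Nr4a1: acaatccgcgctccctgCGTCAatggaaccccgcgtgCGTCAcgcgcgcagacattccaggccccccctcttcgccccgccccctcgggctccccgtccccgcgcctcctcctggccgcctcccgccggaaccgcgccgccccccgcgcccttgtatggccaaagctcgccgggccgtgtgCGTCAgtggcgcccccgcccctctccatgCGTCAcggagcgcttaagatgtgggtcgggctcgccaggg
Fos: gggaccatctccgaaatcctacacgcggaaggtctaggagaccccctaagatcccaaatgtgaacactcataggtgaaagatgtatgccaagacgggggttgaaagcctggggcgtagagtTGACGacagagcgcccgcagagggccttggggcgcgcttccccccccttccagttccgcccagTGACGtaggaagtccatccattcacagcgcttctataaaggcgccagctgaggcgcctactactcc
Jun: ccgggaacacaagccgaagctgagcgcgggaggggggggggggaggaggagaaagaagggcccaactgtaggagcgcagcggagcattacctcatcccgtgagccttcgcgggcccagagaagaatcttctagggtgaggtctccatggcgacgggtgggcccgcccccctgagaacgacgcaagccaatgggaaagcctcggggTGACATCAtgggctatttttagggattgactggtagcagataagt

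The 3 members that rose all carried the core in this window. Nr4a1 had 4 copies, starting at positions -233, -213, -69 and -40 from the start, Fos had 2, at -129 and -66, and Atf3 had 1, at -7. Fosb, Junb and Klf4, which were not called, each held 1 as well, and Jun and Jund held none, so the core did not separate the called genes from the others. It occurred in 6 of the 8 member windows and in 17.8% of the 32851 windows of the same length in the table (both strands). Other letters searched on both strands were rarer. The full element TGACGTCA (1.55% of all windows), the AP-1 site TGANTCA (6.75%) and the CArG box bound by serum response factor (1.47%) were found in none of the 8. Bases further upstream were not searched, and Egr1 and Ier2 were not among the 8, so these members may hold such sites elsewhere or unseen. The Jun octamer, which stood at -45 in Jun alone among the 8, was found in 2.93% of all windows. The motifs were chosen after the sequences had been seen, and a match of letters is no evidence of binding.

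After AKG, Atf3 and Nr4a1 were higher in every library than in any Control library, Fos was higher with overlapping groups, and Ier2 was lower relative to the bulk of genes. The other 6 members did not pass the test. In edgeR's quasi-likelihood test with p-values adjusted over all 13117 tested genes, 3 of 10 members were higher and 1 was lower at an adjusted p under 0.05, where 25.0% of all tested genes were higher and 25.2% lower. These shares lie near the background, so the members did not stand out from the table by their number of calls. In 2 members the AKG values lay wholly above the Control values and in 1 wholly below, against 29.4% and 29.9% of all tested genes. The median log2 fold change of the members was 0.25, against 0.00 for all tested genes.

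Atf3, a stress-induced factor of the ATF/CREB family, had the largest difference. It stood at 11.1, 6.96 and 5.05 CPM in AKG 1, 2 and 3, against 2.72, 3.04 and 3.53 CPM in Control 1, 2 and 3 (counts scaled to library size with the trimmed mean of M-values, TMM, which centres the bulk of genes near no change). The groups did not overlap, and the lowest AKG library was still above the highest Control library. Atf3 averaged 7.71 ± 3.11 CPM in AKG and 3.10 ± 0.409 CPM in Control (SD, n = 3 each), a log2 fold change of 1.32 (SE 0.276, edgeR adjusted p = 0.00194), or 2.49-fold. The AKG libraries spread more widely than the Control libraries, with AKG 1 far above AKG 3.

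Nr4a1, an orphan nuclear receptor that responds to calcium and cyclic AMP signals, had the smallest p-value of the members. It stood at 22.1, 18.4 and 17.9 CPM in AKG 1, 2 and 3, against 11.8, 10.4 and 12.3 CPM in Control 1, 2 and 3. The groups lay far apart beside their own spread, at 19.4 ± 2.30 CPM in AKG and 11.5 ± 1.004 CPM in Control (SD, n = 3 each). The log2 fold change was 0.76 (SE 0.122, edgeR adjusted p = 0.000173), or 1.69-fold. Its relative Nr4a3 fell, to 1.46, 2.17 and 1.28 CPM in AKG, against 2.86, 2.36 and 3.90 CPM in Control (log2 fold change -0.89, edgeR adjusted p = 0.024). Scaled to total counts it was not called (-0.45, adjusted p = 0.193). Nr4a2 had a log2 fold change of 0.26 (adjusted p = 0.463), and 0.71 scaled to total counts (adjusted p = 0.049). Of the summed FPKM of the 3 NR4A genes, Nr4a1 made up 85.4 to 89.5% in AKG and 76.0 to 80.6% in Control. These relatives were named after their values had been seen, as were the other FOS, JUN and EGR relatives below.

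Fos, the AP-1 subunit most used as a marker of recent stimulation, was scarce in all libraries. It had 76, 48 and 80 counts in AKG 1, 2 and 3, against 45, 26 and 21 counts in Control 1, 2 and 3. In CPM these were 4.27, 2.98 and 4.44 in AKG, against 3.06, 1.61 and 1.55 in Control. The groups overlapped, since Control 1 lay just above AKG 2. The log2 fold change was 0.91 (SE 0.292, edgeR adjusted p = 0.0188), or 1.88-fold. The call rested on single libraries: the adjusted p was 0.0519 without AKG 3, 0.0863 without Control 2 and 0.0772 without Control 3.

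The AKG libraries with more Fos were also those with transcripts of the atrium. The 5 atrial transcripts Sln, Myl7, Myl4, Bmp10 and Mybphl summed to 359, 7.58 and 219.6 CPM in AKG 1, 2 and 3, against 6.404 to 12.1 CPM in Control, with Bmp10 at 0 counts in Control 1 and Control 3 and Sln at 0 in Control 3. With AKG 2 alone against the Controls, a fit with 1 AKG library, the log2 fold change was 0.53 for Fos, 1.17 for Atf3 and 0.685 for Nr4a1. With the level of the atrial transcripts as a covariate it was 0.47 for Fos (edgeR adjusted p = 0.383). In that fit it was 1.13 for Atf3 and 0.672 for Nr4a1 (adjusted p = 0.0459 and 0.00978). The covariate was high only in AKG 1 and AKG 3, so it shares part of the group contrast. Neither fit can tell atrial cells apart from AKG, and the part of atrial cells in the Fos values was not tested. Y-linked transcripts summed to 89.2, 50.4 and 39.0 CPM in AKG 1, 2 and 3, against 168, 0.311 and 176 CPM in Control 1, 2 and 3, so the libraries differed in sex makeup within and between the groups. The part of sex in the values of the members was not tested.

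Fosb, a close relative of Fos, had few counts. It had 19, 8 and 11 counts in AKG 1, 2 and 3, against 13, 6 and 8 counts in Control 1, 2 and 3, and 3 counts, the detection floor, were worth 0.167 to 0.221 CPM depending on the library. The groups overlapped, and a difference was not detectable at this depth (log2 fold change 0.25, SE 0.49, edgeR adjusted p = 0.691). Fosl2 was the dominant FOS family transcript. It made up 68.1 to 77.6% of the family's summed FPKM in AKG and 69.5 to 83.8% in Control, Fos made up 20.5 to 27.3% in AKG and 13.3 to 26.2% in Control, and Fosl1 was at 0 counts in every library. Fosl2 rose, with 36.7 ± 4.71 CPM in AKG and 27.4 ± 2.49 CPM in Control (SD, n = 3 each, log2 fold change 0.42, SE 0.108, edgeR adjusted p = 0.0052).

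**Figure D1:**
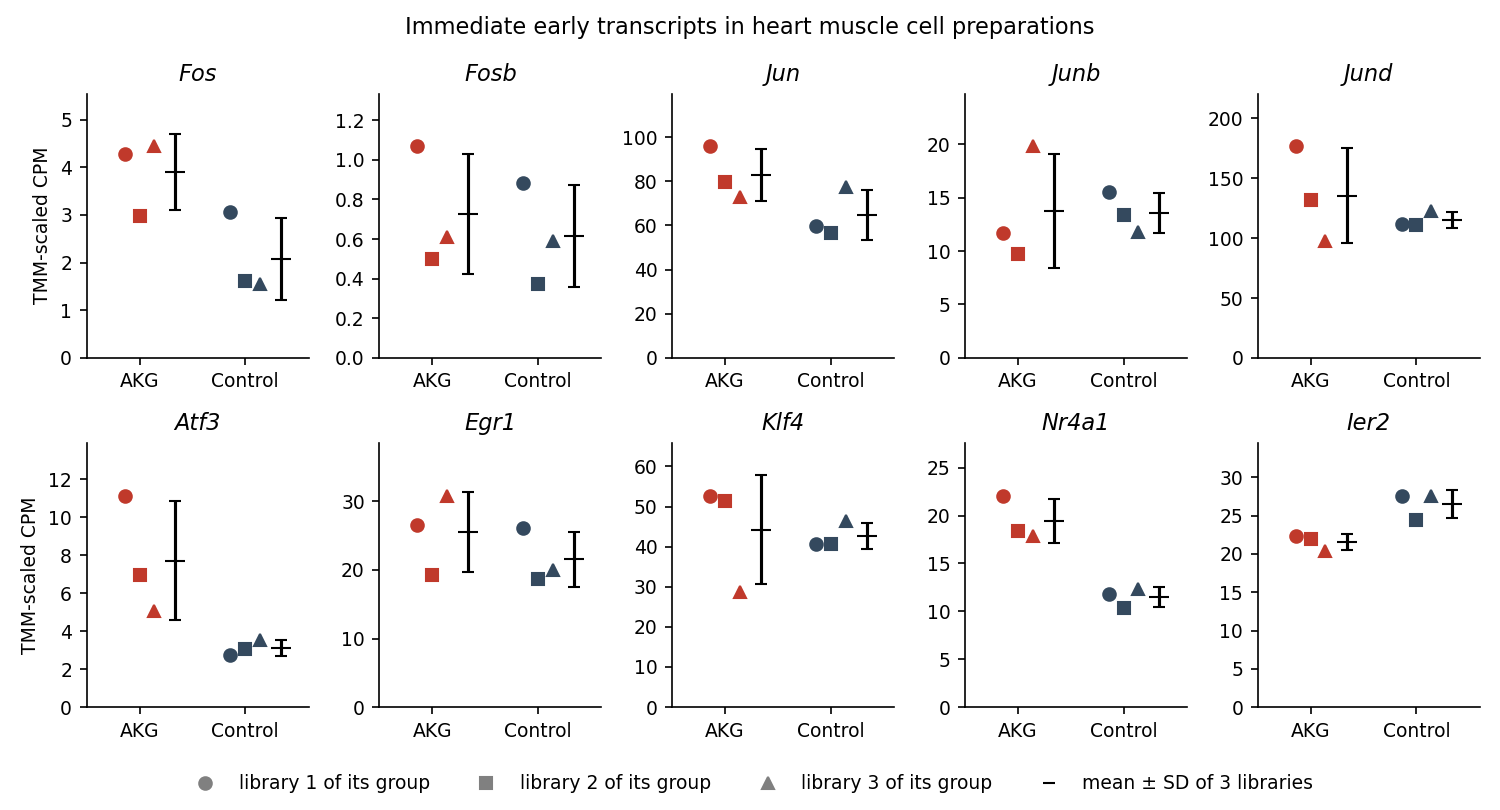
TMM-scaled CPM (vertical axes, each from 0) of the 10 members in AKG and Control libraries, 1 symbol per library, with the mean and SD of 3 libraries as a bar beside them. Atf3 and Nr4a1 do not overlap between the groups, Fos does, and Ier2 is lower in AKG on this scale (log2 fold change -0.30) but not with total counts as the scaling (0.15).

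The JUN family, the partners of FOS in AP-1, showed no call by TMM scaling. Jun stood at 95.8, 79.6 and 73.0 CPM in AKG 1, 2 and 3, against 59.8, 56.8 and 77.4 CPM in Control 1, 2 and 3. Only Control 3 reached into the AKG range. The log2 fold change of 0.36 (SE 0.135) had an edgeR adjusted p of 0.0519, just above the threshold of 0.05. Jun passed in 9 of the 20 alternatives that were run. Among these were total counts as the scaling and both limma fits on FPKM, in which most tested genes were called higher. The edgeR adjusted p was 0.00415 without Control 3 and 0.0434 without AKG 3, but 0.0857 to 0.154 with any other library left out. The authors' deposited table gave Jun a log2 fold change of 0.80, the log2 ratio of mean FPKM scaled to depth alone. Its false discovery rate there was 0.0211.

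Jund, the JUN member with the highest level, stood at 177, 132 and 97.8 CPM in AKG 1, 2 and 3, against 112, 111 and 123 CPM in Control 1, 2 and 3. AKG 3 lay below all Control libraries and the other AKG libraries lay above them. The SD was 39.6 CPM in AKG and 6.64 CPM in Control, and the log2 fold change was 0.24 (SE 0.215, edgeR adjusted p = 0.406). Without AKG 3 it was 0.43 with an adjusted p of 0.0111.

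Junb, the JUN member that is induced most like Fos, stood at 11.7, 9.75 and 19.8 CPM in AKG 1, 2 and 3, against 15.5, 13.3 and 11.8 CPM in Control 1, 2 and 3. AKG 3 was the highest of all 6 libraries and the other AKG libraries were the lowest. The log2 fold change was 0.02 (SE 0.264, edgeR adjusted p = 0.948), and -0.33 without AKG 3 (adjusted p = 0.0799). Within the family Jund made up 63.4 to 74.4% of the summed FPKM in AKG and 70.5 to 72.5% in Control, Jun 21.1 to 24.8% in AKG and 19.5 to 23.3% in Control, and Junb 4.53 to 11.8% in AKG and 6.24 to 9.09% in Control.

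Among the zinc finger factors neither member passed. Egr1, a factor that serum and stretch induce through serum response factor, stood at 26.6, 19.2 and 30.8 CPM in AKG 1, 2 and 3, against 26.1, 18.6 and 19.9 CPM in Control 1, 2 and 3. The groups overlapped, with AKG 2 beside the lower Controls (log2 fold change 0.25, SE 0.189, edgeR adjusted p = 0.312). Without AKG 2 the value was 0.42 with an adjusted p of 0.0333, and with AKG 2 alone against the Controls it was -0.16. Its relative Egr3 fell, to 1.91, 1.06 and 1.89 CPM in AKG, against 3.40, 2.79 and 3.09 CPM in Control (log2 fold change -0.92, edgeR adjusted p = 0.0147). Scaled to total counts it was not called (-0.47, adjusted p = 0.171).

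Klf4, a Krüppel-like factor known from endothelium and from reprogramming, stood at 52.7, 51.4 and 28.6 CPM in AKG 1, 2 and 3, against 40.7, 40.8 and 46.4 CPM in Control 1, 2 and 3. As for Jund, AKG 3 lay below every Control library and the other AKG libraries above. The log2 fold change was 0.05 (SE 0.245, edgeR adjusted p = 0.873), and 0.30 without AKG 3 (adjusted p = 0.00792).

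Ier2, a nuclear protein of the growth factor response, had a coefficient of variation of 4.70% in AKG, the lowest of the 10 members there, and 6.98% in Control, where that of Jund was lower (5.77%). It stood at 22.3, 21.99 and 20.4 CPM in AKG 1, 2 and 3, against 27.6, 24.4 and 27.6 CPM in Control 1, 2 and 3. The groups did not overlap. Ier2 fell by 0.30 on the log2 scale (SE 0.0949, edgeR adjusted p = 0.0179). With total counts as the scaling the value was 0.15 (edgeR adjusted p = 0.219). The authors' deposited log2 fold change was also 0.15, beside a false discovery rate of 0.0615. That value is the log2 ratio of mean FPKM (16.5 in AKG and 14.9 in Control), which is likewise scaled to depth alone. With DESeq2 the value for Ier2 was -0.29 (adjusted p = 0.0542). The edgeR adjusted p was 0.073 without Control 1 and 0.0679 without Control 3.

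The scaling set the number of calls. Mitochondrially encoded genes took 25.7 to 31.4% of the counts in AKG and 38.3 to 43.1% in Control, and the median log2 fold change of all tested genes was 0.45 with total counts as the scaling. On that scale 6 members were higher and 0 lower, beside 56.7% of all tested genes higher and 9.12% lower, and all 10 members had a positive value. The members' median was 0.70, and thus 0.25 above that of all genes, as with TMM. Fos, Jun, Jund, Egr1, Atf3 and Nr4a1 were called, and Junb had an adjusted p of 0.203, Klf4 of 0.056 and Fosb of 0.221. In the authors' deposited table all 10 members had a positive log2 fold change, which for the members is the log2 ratio of mean FPKM. Their false discovery rate was under 0.05 for 4 members, Atf3, Nr4a1, Jun and Fos. It did not follow the order of that ratio: Junb had 0.946 beside 0.48, and Ier2 had 0.0615 beside 0.15. The shares of all genes in that table that were positive or under 0.05 were not counted. Neither count is therefore read as particular to the members.

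**Figure D2:**
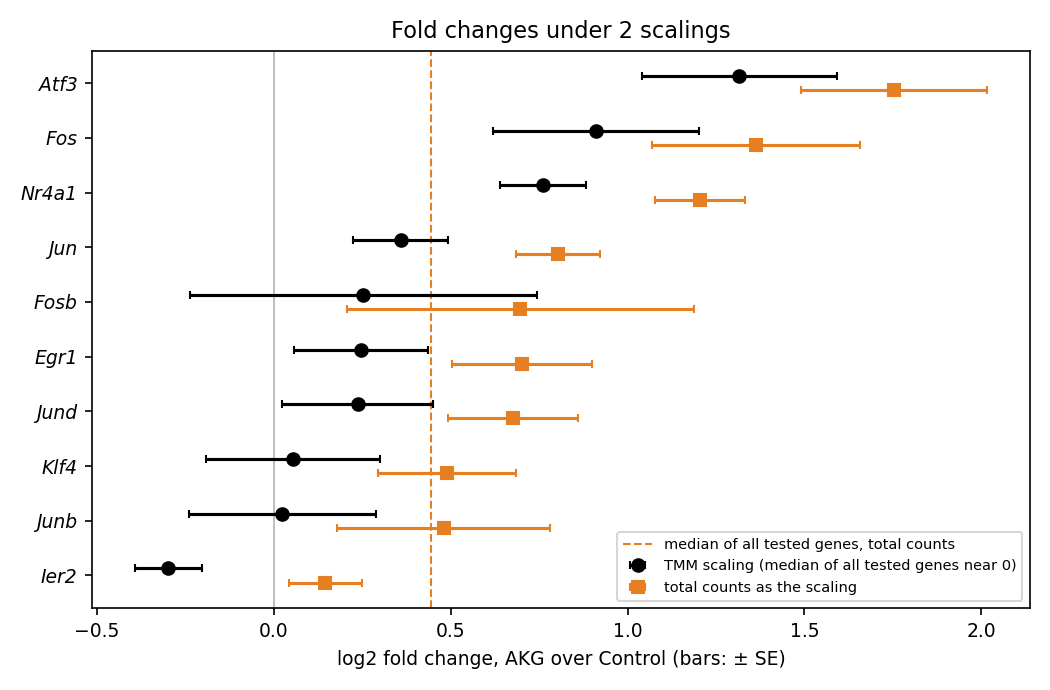
Log2 fold change of each member, AKG over Control (horizontal axis), with its SE, by TMM (circles) and with total counts as the scaling (squares). All 10 values lie to the right of 0 with total counts, where the median of all tested genes is 0.45, and 9 of 10 with TMM, where Ier2 lies at -0.30.

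Levels can be compared between genes only per length, and the authors' FPKM was used for this. In Control the order was Jund (59.1 ± 2.99 FPKM), Jun (17.3 ± 2.59), Ier2 (14.9 ± 0.364), Klf4 (12.1 ± 0.82), Junb (6.42 ± 0.875), Egr1 (5.79 ± 0.884), Nr4a1 (3.96 ± 0.174), Atf3 (1.34 ± 0.179), Fos (0.838 ± 0.324) and Fosb (0.139 ± 0.0521, SD, n = 3 each). Junb and Egr1 overlapped in that order, as did Atf3 and Fos, and the other neighbours did not. In AKG the order was Jund (94.4 ± 26.3 FPKM), Jun (30.2 ± 4.04), Klf4 (17.4 ± 4.92), Ier2 (16.5 ± 0.461), Egr1 (9.41 ± 2.45), Nr4a1 (9.10 ± 1.06), Junb (8.96 ± 3.87), Atf3 (4.53 ± 1.78), Fos (2.17 ± 0.519) and Fosb (0.246 ± 0.131). There Klf4 and Ier2 overlapped, Egr1, Nr4a1 and Junb overlapped, and Junb also overlapped with Atf3 and with Klf4. Among all tested genes the mean FPKM of Jund exceeded that of 96.1% of genes in AKG and 94.6% in Control. Fos exceeded only 20.97% in AKG and 12.8% in Control, and Fosb 1.72% in AKG and 1.23% in Control. Fos and Fosb were thus the lowest of the 10 in both groups, and the most abundant was Jund, which many resting tissues express.

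**Figure D3:**
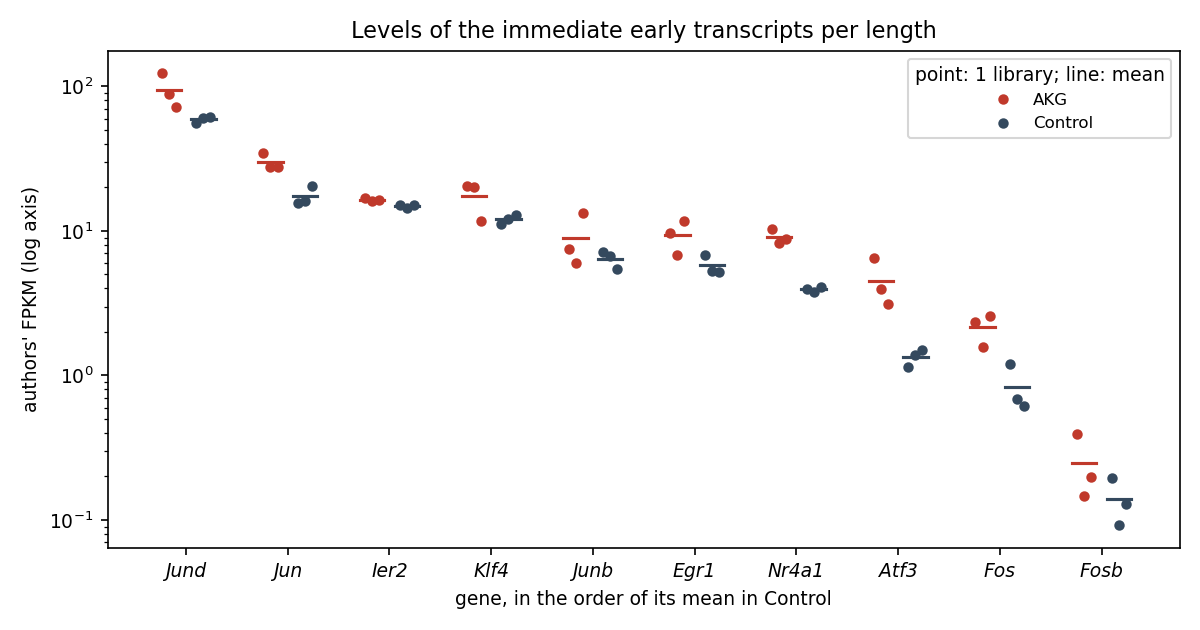
FPKM of the authors (log axis) for each member, with genes in the order of their mean in Control, AKG points left of Control points and a line at each mean. Jund is highest at 94.4 FPKM in AKG and 59.1 FPKM in Control, and Fosb lowest at 0.246 FPKM in AKG and 0.139 FPKM in Control.

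The members did not all vary together from library to library. Within their groups, Jund, Atf3 and Klf4 went alike, with Pearson r between their deviations from the group mean (log2 CPM, 6 libraries) of 0.98 for Jund and Atf3 and 0.89 for Jund and Klf4. Jun, Nr4a1 and Ier2 also went with them, and every pair of these 6 genes had a positive r, the lowest 0.49 for Atf3 and Ier2. Fos, Egr1 and Junb formed another set, with r of 0.89 for Fos and Egr1, 0.83 for Junb and Egr1 and 0.64 for Fos and Junb. Fosb had a positive r with both sets, such as 0.74 with Fos and 0.84 with Nr4a1. Across the sets Junb and Klf4 had r = -0.94 and Junb and Jund -0.72. The contrast lay mainly in AKG 3, where Junb stood 0.59 above its group mean and Klf4 0.57, Atf3 0.53 and Jund 0.43 below it (log2). AKG 1 was high in Atf3 (0.60) and Fosb (0.55). In Control the widest deviations belonged to Fos in Control 1 (0.60) and to Fosb, which stood at 0.51 in Control 1 and -0.51 in Control 2. These correlations describe 6 libraries that the genes share, with low counts for Fos and Fosb, and were not tested.

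**Figure D4:**
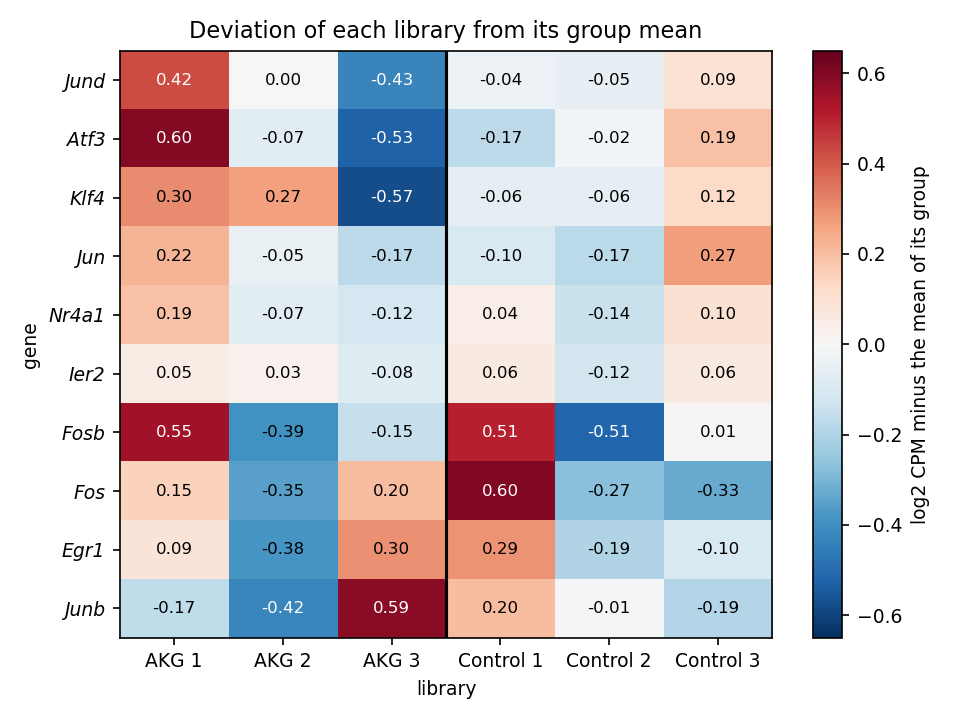
Log2 CPM of each member (rows) in each library (columns) minus the mean of the library's own group, red above and blue below. In AKG 3 Junb lies 0.59 above its group mean while Klf4, Atf3 and Jund lie 0.43 to 0.57 below theirs, and Ier2 deviates little in any library.

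By the mean of the members' standardised deviations within their groups, AKG 1 stood highest (0.78) and Control 2 lowest (-0.58). Among 10433 other genes with a mean of at least 5 CPM, the genes that followed this mean most closely included Vwa1, Slc25a36, Nras, Strap, Ulk3, Pign and Sppl3, with Pearson r from 0.989 to 0.998 over the 6 libraries. With this many candidates and 6 values, r near 1 is a description only. Summed over the members, the level was 424, 343 and 299 CPM in AKG 1, 2 and 3, against 300.0, 279.9 and 324 CPM in Control 1, 2 and 3, and Jund and Jun made up most of it.

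Other immediate early genes outside the 10 had calls in both directions. Of 32 listed, 29 were tested, of which 13 rose (44.8%) and 6 fell (20.7%), beside 25.0% and 25.2% of all tested genes, with a median log2 fold change of 0.37. The antiproliferative genes Btg1 and Btg2 rose. Btg1 averaged 93.3 ± 5.96 CPM in AKG and 52.8 ± 1.19 CPM in Control (log2 fold change 0.82, edgeR adjusted p = 1.25e-06), and Btg2 42.9 ± 2.49 CPM in AKG and 29.2 ± 1.17 CPM in Control (0.56, adjusted p = 0.000121). Klf6, a zinc finger factor related to Klf4, had 106.5, 126 and 113 CPM in AKG, against 62.8, 61.7 and 71.3 CPM in Control (0.82, adjusted p = 4.37e-06). Ppp1r15a, the phosphatase subunit also called GADD34 that reverses the integrated stress response, rose by 0.74 (adjusted p = 3.49e-05).

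The falls in that list included Gadd45g, a stress sensor, and Ier3, an inhibitor of apoptosis. Gadd45g had 8.54, 8.26 and 7.77 CPM in AKG, against 24.6, 17.9 and 27.9 CPM in Control (-1.51, edgeR adjusted p = 4.37e-06), and Ier3 averaged 7.91 ± 0.568 CPM in AKG and 14.2 ± 0.523 CPM in Control (-0.85, adjusted p = 7.64e-05). Both were also lower with total counts as the scaling (-1.06 and -0.40, adjusted p = 9.99e-06 and 0.0192). On that scale 19 genes of the list were higher and 3 lower, beside 56.7% and 9.12% of all tested genes.

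Feedback regulators, the phosphatases and RNA-binding proteins that end the response, had calls in both directions. Of 17 tested, 3 rose (17.6%) and 5 fell (29.4%), shares near the 25.0% and 25.2% of all tested genes, with a median of -0.04. Total counts gave 8 higher and 0 lower, beside 56.7% and 9.12% of all tested genes. Dusp4, a nuclear phosphatase of ERK and JNK, had 3.32, 7.95 and 12.7 CPM in AKG, against 1.09, 0.932 and 1.55 CPM in Control, the largest difference of the list (2.75, SE 0.56, edgeR adjusted p = 0.00652). Zfp36l1, which targets AU-rich mRNAs for decay, rose by 0.44 and Spry1, an inhibitor of receptor tyrosine kinase signals, by 0.35 (adjusted p = 0.000504 and 0.00545). Spry4, Dusp10 and Dusp6 fell by 0.79, 0.72 and 0.32 (adjusted p = 0.000734, 0.00764 and 0.0105), and none of these 3 was called with total counts as the scaling, where Dusp6 had a value of 0.12.

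Of 23 upstream factors and kinases tested, 8 rose (34.8%) and 2 fell (8.70%), beside 25.0% and 25.2% of all tested genes, with a median of 0.08. Upper-quartile scaling gave 7 higher and 4 lower, and total counts 17 higher and 0 lower, beside 56.7% and 9.12% of all tested genes. The kinase gene Rps6ka2 rose by 0.52 and Atf1, a CREB relative, by 0.52, and the kinase gene Map2k2 (MEK2) fell by 0.38 (edgeR adjusted p = 0.000263, 0.00104 and 0.000545), with a value of 0.06 for Map2k2 with total counts. Of 11 other bZIP partners of AP-1, 8 were tested, of which 3 rose and 3 fell (37.5% each; 4 higher and 0 lower with total counts). Atf2 rose by 0.38, and Mafg and Atf4, an effector of the integrated stress response, fell by 0.39 and 0.42 (adjusted p = 0.00245, 0.00241 and 0.00504), while Mafg and Atf4 had values of 0.06 and 0.02 with total counts.

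**Figure D5:**
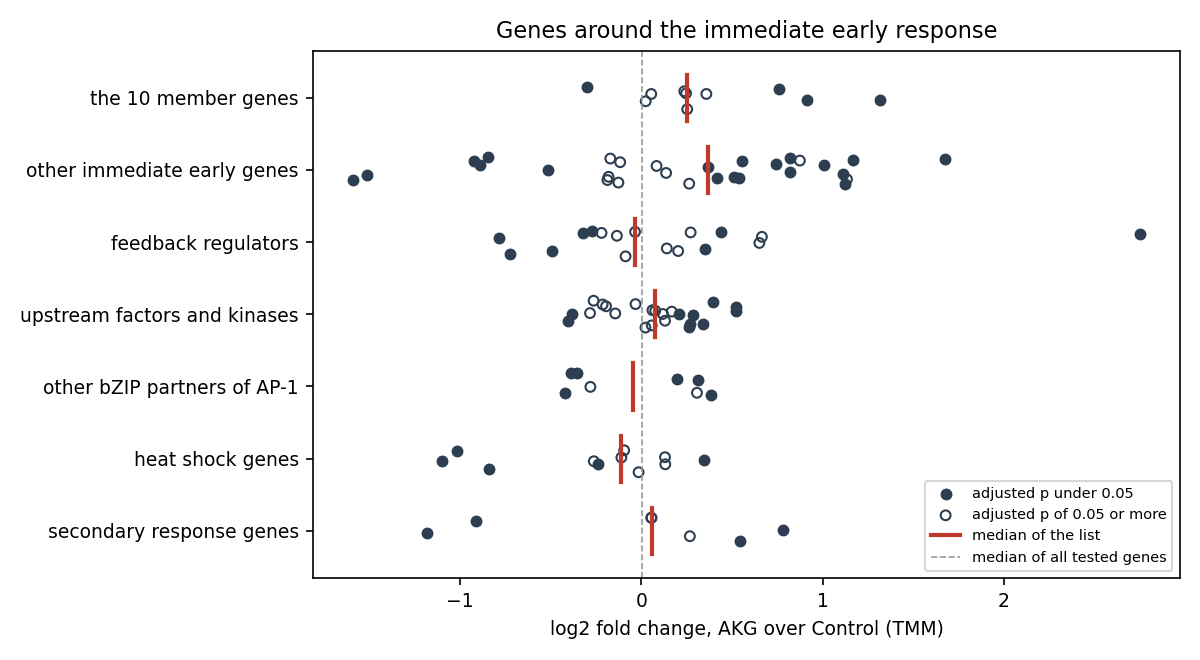
Log2 fold change, AKG over Control by TMM (horizontal axis), of the tested genes of 7 lists (rows), filled where the adjusted p was under 0.05, with each list's median in red. The members' median is 0.25 and that of the other immediate early genes 0.37, and with total counts as the scaling the medians are 0.70 and 0.81 beside 0.45 for all tested genes.

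Heat shock genes, which dissociation is also known to induce, were counted next, with no test of the group. Of 11 tested, 1 rose (9.09%) and 4 fell (36.4%), beside 25.0% and 25.2% of all tested genes, with a median of -0.11. Total counts gave 5 higher and 3 lower, beside 56.7% and 9.12% of all tested genes. The mitochondrial chaperonin genes Hspe1 and Hspd1 and the Hsp110 gene Hsph1 fell by 1.10, 0.84 and 1.02 (edgeR adjusted p = 2.89e-07, 7.03e-06 and 2.43e-05), and were lower with total counts as well. The inducible Hsp70 genes Hspa1a and Hspa1b, named after their values had been seen, were low. Hspa1a stood at 2.05 to 4.95 CPM in AKG, against 2.86 to 5.10 CPM in Control (adjusted p = 0.549), and Hspa1b at 2.22 to 3.09 CPM in AKG, against 1.68 to 3.47 CPM in Control (adjusted p = 0.742). Of 16 secondary response genes, cytokines and proteases that AP-1 and related factors switch on later, only 7 had enough counts to be tested, of which 2 rose and 2 fell (28.6% each). The growth factor gene Hbegf fell by 0.91 and the heme oxygenase gene Hmox1 rose by 0.55 (adjusted p = 0.000215 and 0.00156).

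Every member is also expressed by other cells of the heart, and some markers of those cells differed between the groups. Each count below stands beside 25.0% of all tested genes higher and 25.2% lower. With total counts these shares were 56.7% and 9.12%. The endothelial shares, 30% each way, lay near the background. Cardiomyocyte markers dominated all libraries, with the sum of 10 at 34060 to 37510 CPM in AKG and 67840 to 73430 CPM in Control, and 8 of 10 fell (6 lower and 2 higher with total counts). Much of the lower sum lay in Myh6 (mean 12430 CPM in AKG and 27740 CPM in Control) and Actc1 (2996 and 12000 CPM). Pln and Mybpc3 were not called (log2 fold change -0.01 and 0.08, edgeR adjusted p = 0.939 and 0.519), so the markers did not fall alike. Macrophage markers summed to 90.6 to 117 CPM in AKG and 137 to 212 CPM in Control (4 of 10 fell, but 2 lower and 1 higher with total counts), and smooth muscle and pericyte markers to 1412 to 1609 CPM in AKG and 2328 to 2549 CPM in Control (6 fell and 1 rose, but 2 lower and 3 higher with total counts). Fibroblast markers summed to 2670 to 3462 CPM in AKG and 3012 to 3723 CPM in Control (2 rose and 4 fell, but 3 higher and 1 lower with total counts) and endothelial markers to 2261 to 2872 CPM in AKG and 2489 to 2725 CPM in Control (3 rose and 3 fell, but 7 higher and 0 lower with total counts). Neutrophil markers were low but summed to 5.51 to 12.6 CPM in AKG, against 0.81 to 1.63 CPM in Control, with Ly6g, Mpo and Elane at 0 counts in every library. All 3 that could be tested rose, having passed the filter through the AKG libraries. The part of any of these cells in the members' values was not tested. In bulk RNA, a change in the number of cells of a type and a change in RNA per cell cannot be told apart.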

How the data were processed

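The mRNA of 6 libraries was measured, 3 of AKG and 3 of Control. The authors deposited 1 table that holds, for each gene and library, an estimated count and FPKM (fragments scaled to gene length and depth), beside their own log2 fold change, p-value and FDR. Counts were whole numbers as deposited, and 60 zero counts stood beside an FPKM above 0. The submitters' processing notes name HISAT2 2.1.0, RSEM 1.2.19 and DESeq2 1.20.0. Their roles, the genome build and the annotation are not given in the sources used here, nor is the use of strand, so reads of Jun and Klf4 could not be told from those of transcripts on the other strand.

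Totals ranged from 14402876 to 15315236 counts in AKG and from 16241120 to 17797368 in Control. Rows without a symbol (30) held 3.95e-05% of counts and were left out. Counts were fitted in R 4.3.3 with edgeR 4.0.16 (filterByExpr, minimum count 10 and total 15; TMM; robust quasi-likelihood test), with Benjamini-Hochberg adjustment and a threshold of 0.05. SEs were derived from the log2 fold change and its F statistic. The procedure was tested on simulated data. Alternatives used DESeq2 1.42.0 and limma 3.58.1 among others.

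The members and lists were chosen with earlier results of these data known. Genes named beside the members were the 3 with the smallest p of each pathway list, or 6 for other immediate early genes and for feedback regulators, and the 8 genes most alike in pattern; some genes that this rule names are not reported here. Family relatives of the members, the Hsp70 genes and the genes under other observations were named outside this rule, after their values had been seen. Markers are given as sums.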

Additional observations from a re-analysis of the deposited data

How the results depend on the processing

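Of 20 alternatives, 6 left out a library. Atf3 (log2 fold change 0.96 to 1.75) and Nr4a1 (0.67 to 1.2) were called in all 20, and Fos in 14 of the 19 in which it could be tested. Over all genes, 3281 higher and 3309 lower calls became 7431 and 1196 with total counts as the scaling, 6732 and 1068 with limma on log2(FPKM + 1), and 6725 and 1067 with log2(FPKM + 0.1); 2118 were higher with the atrial covariate. The counts of members stand beside these counts over all genes and are not read as particular to the members. Members higher numbered 6 with total counts and 7 in each FPKM fit, where Fosb was not tested. They numbered 2 to 5 with a library left out (5 without AKG 3, where Jun, Jund and Klf4 were called and Fos was not). Members lower numbered 0 with total counts, in both FPKM fits, with DESeq2 and with the atrial covariate, and 0 to 1 with a library left out (0 without Control 1 and without Control 3).

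Values changed sign only where they were not called, save for Ier2 and Junb. Ier2 was 0.146 with total counts and 0.137 and 0.145 in the FPKM fits. Junb was -0.00438 with upper-quartile scaling, -0.0281 with limma-voom, -0.443 with the atrial covariate and -0.47 (adjusted p = 0.0473) with AKG 2 alone against the Controls. Fosb was -0.382 and Egr1 -0.169 with that covariate, and -0.289 and -0.162 with AKG 2 alone, a fit that assumes this library to vary as the Controls do. With a library left out, Fosb ranged from -0.127 to 0.611, Junb from -0.331 to 0.224 and Klf4 from -0.0852 to 0.297. With the replicate block, Junb was -0.0285, and the block changed no call of a member. Same-numbered libraries had correlations of 0.161, -0.034 and 0.049. The first, AKG 1 with Control 1, was the highest between the groups, while Control 3 correlated best with AKG 2 (0.067). The labels do not say that the numbers pair the libraries, and correlations over so few libraries cannot decide it. The causes were not tested. Of the pathway and marker list counts, 16 of 26 moved by over 1.5 times with total counts, 15 of 26 in each FPKM fit, 8 of 26 with the atrial covariate and 6 of 156 with a library left out. Precision is limited by 3 libraries a group and, for Fos and Fosb, by 6 to 80 counts a library.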

Other observations

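In AKG 3, the library with the highest Junb, 3 single genes also had their highest value of the 6 libraries. They were picked after the values had been seen and stand for no gene group. Socs3, an inhibitor of cytokine receptor signals, stood at 4.61, 3.67 and 14.7 CPM in AKG 1, 2 and 3, against 5.92, 5.404 and 3.31 CPM in Control 1, 2 and 3 (log2 fold change 0.65, edgeR adjusted p = 0.457). Cebpd, a bZIP factor of the acute phase response, stood at 15.3, 26.0 and 33.7 CPM in AKG 1, 2 and 3, against 13.3, 12.4 and 15.3 CPM in Control 1, 2 and 3 (0.87, adjusted p = 0.0548). Batf2, an interferon-responsive bZIP gene with too few counts to be tested, stood at 0.393, 0.186 and 2.33 CPM in AKG 1, 2 and 3, against 0.272, 0.373 and 0.295 CPM in Control 1, 2 and 3. The neutrophil marker sum was also highest in AKG 3, at 12.6 CPM, and its part in these values was not tested.

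Per1, a clock gene that is also induced immediately by glucocorticoids, stood at 70.4, 82.9 and 68.9 CPM in AKG 1, 2 and 3, against 28.9, 21.1 and 51.7 CPM in Control 1, 2 and 3. The groups did not overlap, but the Control libraries spread widely and the adjusted p was 0.0593 (log2 fold change 1.13, SE 0.365).

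Myc, the growth regulator, was the listed immediate early gene with the largest rise. It stood at 15.7, 18.4 and 25.1 CPM in AKG 1, 2 and 3, against 7.83, 5.96 and 4.71 CPM in Control 1, 2 and 3 (1.68, SE 0.215, edgeR adjusted p = 0.000126). The groups did not overlap. In that list Csrnp1 also rose by 1.17 and Gadd45b by 1.11 (adjusted p = 0.000165 and 0.000171), while the related Gadd45g fell by 1.51. Myc, Csrnp1, Gadd45b and Per1 were named after their values had been seen.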
